A study of Mus musculus with 4 samples.

Results

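The first 2 Mb of assembled sequence at the low-coordinate end of each mouse autosome was examined in 4 chromatin immunoprecipitation libraries from V6.5 mouse embryonic stem cells. On each of chromosomes 1 to 19 the window began at the lowest position of any read with 1 location in any of the 4 libraries, and it was divided into 200 bins of 10 kb. This gave 3800 bins, or 1.58% of the 240517 autosome bins, and 38.0 Mb of the mm8 assembly. The bins were chosen by position alone, so no read number entered the choice beyond the position of the first read. They are called the proximal bins, since mouse chromosomes are numbered from the centromeric end. The files hold no centromere annotation, and whether the label fits could not be checked beyond the first read positions, which lay between 3000001 and 3079723.

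Mouse autosomes carry the centromere almost at the end of the chromosome. The satellite arrays of the centromere and of the pericentric heterochromatin beside it are highly repetitive, are not part of the assembled sequence, and are represented by a gap before the first assembled base. Pericentric heterochromatin is marked by trimethylation of histone H3 lysine 9, laid down by the Suv39h enzymes, and by H4K20me3, laid down after it by the Suv4-20h enzymes, and both are classical marks of mouse chromocentres. Sequence next to centromeres is often rich in duplicated segments, so a short read from it may match more than 1 place. The proximal bins are the nearest sequence to that heterochromatin at which reads with 1 location were found. Reads from the satellite arrays themselves, which match very many places, are outside this comparison.

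V6.5 cells have a mixed C57BL/6 and 129 background, and in the 4 groups the labels state no genetic change and no treatment. They differed by antibody. The H4K20me3 library (trimethylated lysine 20 of histone H4) and the MCAF1 library (a partner of the methyltransferase SETDB1, also called ATF7IP) came from cells grown for 2 passages away from feeder fibroblasts, the REST library (a DNA-binding repressor of neuronal genes) from cells grown for 1, and the Ring1b library (the ubiquitin ligase of Polycomb repressive complex 1) from cells grown for 2. The share of feeder cells left was not tested. Gel slices of 150 to 350 bp were cut for H4K20me3 and REST and of 150 to 300 bp for MCAF1 and Ring1b, and every library had 18 cycles of PCR. Each antibody had 1 library, so antibody, sequencing run and library cannot be told apart, no difference has a replicate check, and no p-value is given. No input library was used here, so a density cannot be divided by what unenriched chromatin would give.

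A read position was counted once per strand. The libraries then held 7655438 (H4K20me3), 10818054 (MCAF1), 3063633 (REST) and 3023138 (Ring1b) autosomal reads with 1 location, or 31.8, 45, 12.7 and 12.6 reads per bin. Reads that the authors' aligner placed at 2 locations were held apart and counted at both, which gave 2.20, 2.90, 1.76 and 1.48 alignments per bin in the same order. A fold is the read density of a bin or set of bins over the autosome mean of the same library. Brackets give exact 95% Poisson intervals for a fold, Clopper-Pearson intervals for a share and conditional binomial intervals for a ratio of folds. Those of folds and of ratios describe the error of counting reads alone. Those of shares treat bins or reads as separate draws, although neighbouring bins are not independent. None of them covers PCR copies, which do not stand for separate molecules, or the spread between libraries.

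Most proximal sequence could be reached by reads with 1 location. No library had such a read in 130 of the 3800 proximal bins, which is 3.42% (2.87% to 4.05%), against 1.61% (1.56% to 1.66%) of the autosome bins outside them. Chromosome 14 held 90 of the 130, with 110 of its 200 bins read and a longest empty run of 230 kb, and 9 chromosomes had no empty bin. In the first 100 kb, 20 of 190 bins were empty (10.5%, 6.55% to 15.8%).

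With reads that had 1 location, all 4 libraries lay at or slightly below the autosome mean over the proximal 2 Mb as a whole. H4K20me3 stood at 0.992-fold (0.986 to 0.998), MCAF1 at 0.964-fold (0.960 to 0.969), REST at 0.965-fold (0.957 to 0.974) and Ring1b at 0.895-fold (0.887 to 0.904). The 2 Mb that follow were slightly lower in the pooled reads of each library, at 0.941-fold for H4K20me3, 0.925-fold for MCAF1, 0.933-fold for REST and 0.875-fold for Ring1b. That order rested on the first 100 kb, without which the proximal fold was 0.922, 0.911, 0.906 and 0.833, below the following 2 Mb in each library. The proximal density exceeded that of the following 2 Mb on 9 chromosomes in H4K20me3 and 8 in each of the others. The last 2 Mb of the chromosomes, at the telomeric end, were higher in the pooled reads, at 1.13-fold, 1.09-fold, 1.09-fold and 1.25-fold in the same order. The pooled proximal density was therefore 0.879 times the distal density in H4K20me3 (0.872 to 0.886), 0.888 times in MCAF1 (0.882 to 0.894), 0.885 times in REST (0.874 to 0.896) and 0.717 times in Ring1b (0.708 to 0.726). Single chromosomes were mixed, with the proximal density above the distal on 9, 9, 7 and 7 of the 19. The medians over chromosomes were 0.972, 0.728, 0.852 and 0.904.

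Those totals lie close to 1 through bins that were far above the mean and many that were below it. The median proximal bin had 0.660-fold in H4K20me3, 0.756-fold in MCAF1, 0.707-fold in REST and 0.557-fold in Ring1b, against 0.754-fold, 0.889-fold, 0.864-fold and 0.636-fold for the median bin outside. The highest 1% of proximal bins (38 bins) held 13.2%, 10.8%, 12.9% and 16.3% of the proximal reads. Over all autosomes the highest 1% of bins held 4.98%, 3.50% and 5.03% of the reads in H4K20me3, MCAF1 and REST, and 16.4% in Ring1b. Without the highest 1% by the summed fold of the 4 libraries the proximal fold was 0.877 in H4K20me3, 0.872 in MCAF1, 0.856 in REST and 0.764 in Ring1b. The autosome mean kept its own highest bins, so this trim lowers the fold by design and is not a like-for-like comparison. With every repeated read kept, 3 of the libraries came to 1 or just above it, with 1.02-fold in H4K20me3, 1.0-fold in MCAF1 and 1.01-fold in REST, and Ring1b had 0.933-fold.

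Reads with 2 locations gave another picture, with every library above its autosome mean in the pooled proximal bins. H4K20me3 reached 2.48-fold (2.44 to 2.51) in the proximal bins and 0.976-fold outside them. MCAF1 reached 2.35-fold (2.32 to 2.38) in the proximal bins and 0.978-fold outside, REST 1.77-fold (1.74 to 1.80) and 0.988-fold, and Ring1b 2.02-fold (1.98 to 2.06) and 0.984-fold. The following 2 Mb lay at 1.7-fold, 1.60-fold, 1.19-fold and 1.22-fold, and the distal 2 Mb at 1.18-fold, 1.13-fold, 1.12-fold and 1.15-fold. Few bins held a large part of these alignments. The highest 1% of proximal bins held 35.5% of them in H4K20me3, 36.6% in MCAF1, 35.3% in REST and 44.2% in Ring1b. Over all autosomes the highest 1% of bins held 26.8%, 23.4%, 12.7% and 18.0%, so part of this concentration is general to reads with 2 locations. Without the highest 1% by the summed fold of the 4 libraries the proximal fold was 1.65, 1.54, 1.17 and 1.16. The autosome mean was not trimmed, so this step lowers the fold by design. The median proximal bin had 0.455-fold in H4K20me3, 0.567-fold in REST and 0.677-fold in Ring1b, the same as the median bin outside, and 0.690-fold in MCAF1, against 0.345-fold outside. Each of these medians stands for 1 alignment in a bin, except the 0.690-fold of MCAF1, which stands for 2. At fewer than 3 counts the medians can show neither a difference nor a likeness. Beyond the window, chromosome 17 reached 21.3-fold in H4K20me3 at 3000 to 5000 kb from the window start, where the median chromosome had 0.851-fold.

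The same shift was seen as a share of distinct alignments. Reads with 2 locations made up 14.7% (14.5% to 14.9%) of H4K20me3 alignments in the proximal bins and 6.32% outside them. The shares were 13.6% (13.4% to 13.7%) and 5.93% in MCAF1, 20.2% (19.9% to 20.6%) and 12.0% in REST, and 21.0% (20.6% to 21.3%) and 10.3% in Ring1b. In the first 100 kb they came to 32.7%, 33.4%, 42.2% and 43.5%. REST and Ring1b were aligned with a seed of 26 bases and H4K20me3 and MCAF1 with a seed of 36, per the file headers, and the higher shares went with the shorter seed inside and outside the proximal bins. The part of the seed in this was not tested.

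By distance from the window start, the reads with 1 location formed a sharp peak, a trough and, within the window, a slow return towards the mean. Over the first 50 kb the fold was 2.06 in H4K20me3 (2.01 to 2.12), 1.86 in MCAF1 (1.82 to 1.90), 2.55 in REST (2.46 to 2.64) and 2.59 in Ring1b (2.50 to 2.68). At 50 to 100 kb it was 2.59, 2.08, 1.65 and 1.55 in the same order. In the pooled reads REST and Ring1b thus led in the first stretch and H4K20me3 in the second. At 100 to 250 kb all 4 were below the mean, at 0.698, 0.663, 0.610 and 0.576. The folds were 0.835, 0.863, 0.824 and 0.753 at 250 to 500 kb, 0.918, 0.913, 0.887 and 0.790 at 500 to 1000 kb, and 0.979, 0.960, 0.980 and 0.913 at 1000 to 2000 kb. The outer border of the window crossed no step in these reads, and in H4K20me3 the last 50 kb inside it and the first 50 kb beyond it both had 1.05-fold. Just beyond the window, at 2000 to 3000 kb, the folds were still 0.956, 0.949, 0.949 and 0.865. Further out they were lower. At 3000 to 5000 kb the folds were 0.807, 0.806, 0.819 and 0.757, near those at 250 to 500 kb, and at 5000 to 10000 kb 0.860, 0.878, 0.858 and 0.845.

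The peak at the start came from few chromosomes. In the first 50 kb the median chromosome had 0.421-fold in H4K20me3, 0.298-fold in MCAF1, 0.283-fold in REST and 0.223-fold in Ring1b, and at 50 to 100 kb it had 0.157-fold, 0.151-fold, 0.110-fold and 0.111-fold. Only 8 (H4K20me3) or 7 (MCAF1, REST and Ring1b) of the 19 chromosomes lay above the autosome mean in the first 50 kb, and 3, 3, 2 and 1 in the next. The first 100 kb held 11.7% of the proximal H4K20me3 reads in 5.0% of the bins, 10.2% of the MCAF1 reads, 10.9% of the REST reads and 11.6% of the Ring1b reads. Chromosomes 5, 9 and 11 held 79.2%, 82.2%, 83.3% and 84.2% of these. Without the first 100 kb the proximal fold was 0.922 (0.916 to 0.928) in H4K20me3, 0.911 (0.907 to 0.916) in MCAF1, 0.906 (0.897 to 0.915) in REST and 0.833 (0.825 to 0.842) in Ring1b.

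Reads with 2 locations were concentrated at the start in a larger set of chromosomes. Over the first 50 kb they reached 27.6-fold in H4K20me3 (26.9 to 28.3), 26.8-fold in MCAF1 (26.2 to 27.4), 20-fold in REST (19.4 to 20.7) and 24.7-fold in Ring1b (23.9 to 25.5). The median chromosome there had 5.91-fold, 5.11-fold, 1.93-fold and 1.76-fold, and 15, 13, 14 and 12 chromosomes lay above the mean. At 100 to 250 kb, where reads with 1 location were lowest in the summed profile, the 2-location folds were 4.48, 4.53, 2.73 and 3.30, with medians over chromosomes of 4.03, 2.85, 1.47 and 1.44. By 1000 to 2000 kb they had come down to 1.07, 1.05, 1.0 and 1.01.

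**Figure D1:**
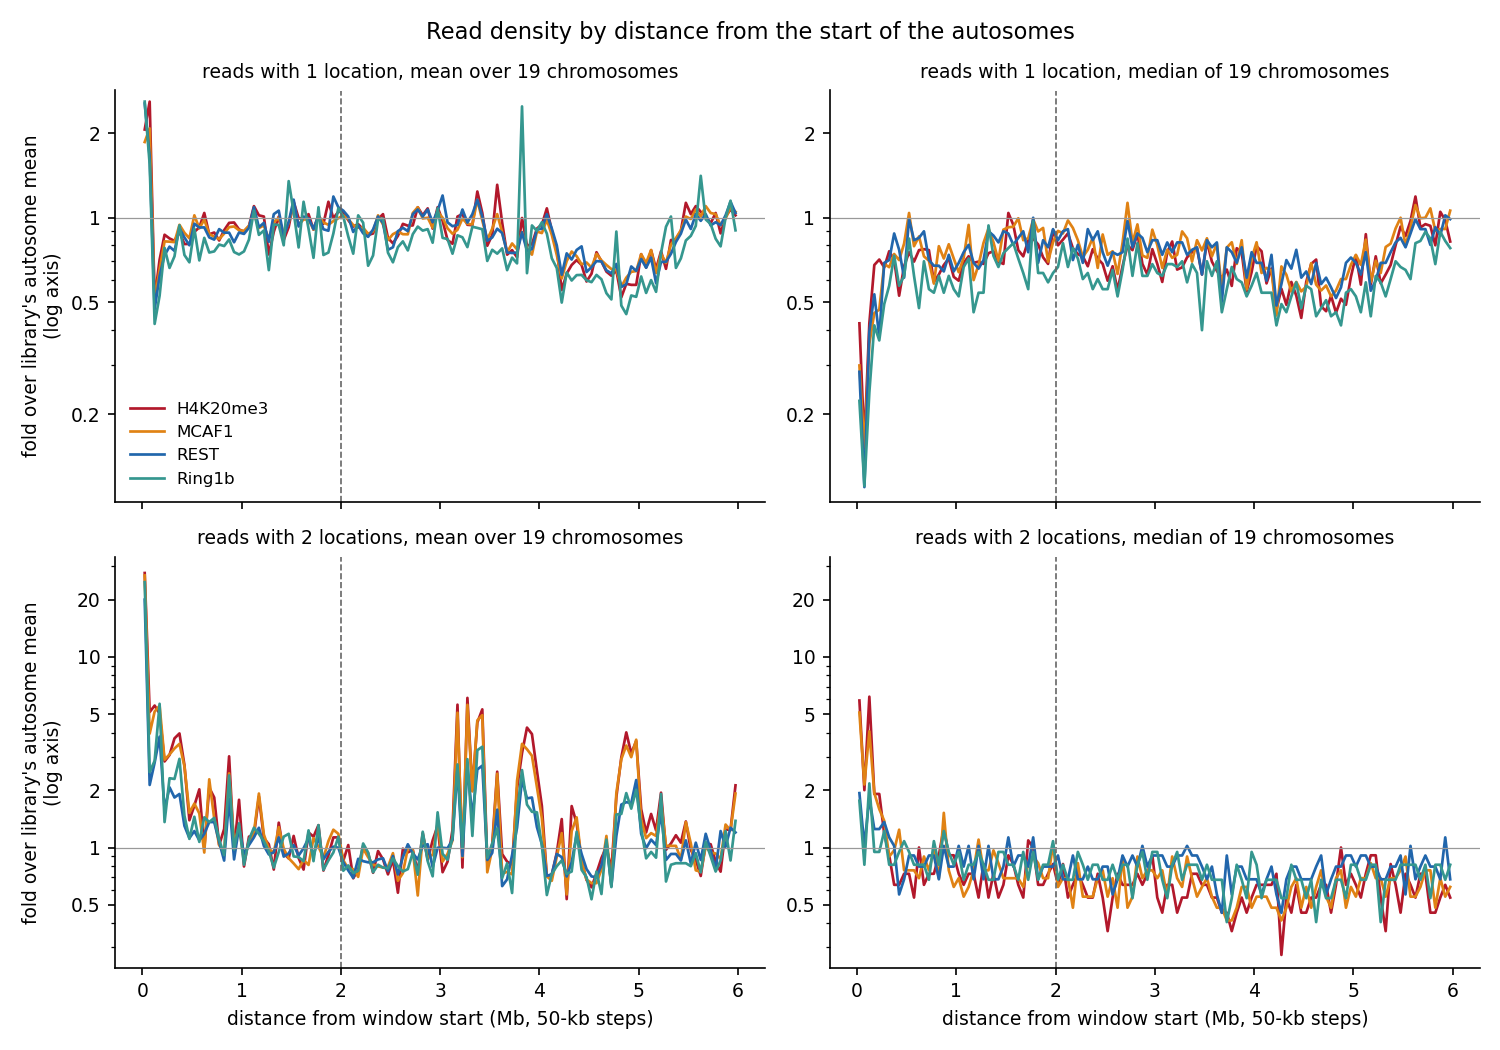
Read density against distance from the window start in 50-kb steps, as fold over the autosome mean of each library on a log axis, for reads with 1 location (top) and 2 locations (bottom); lines are the mean over (left) and the median of (right) 19 chromosomes, and the dashed line marks the end of the proximal 2 Mb. The 1-location mean for H4K20me3 starts at 2.06 while its median starts at 0.421, and the 2-location mean for H4K20me3 starts at 27.6.

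Bins at 10-fold or above in at least 1 library formed 9 runs of adjacent bins, 18 bins in all. Of the runs, 5 (14 bins, on 4 chromosomes) lay in the first 100 kb. In Ring1b alone 0.447% of the proximal bins and 0.454% of all autosome bins reached 10-fold, so the total of 18 is not read as an excess. The runs were defined after their values had been seen and are described without a test. Of the 5 runs at the start, 4 had 10-fold or above in at least 3 libraries, and the lowest value was 2.48-fold in H4K20me3 in the first bin of chromosome 11. The 4 runs further in were 10-fold or above in 1 library each, and 3 of them were above the mean in all 4. Together the runs at the start held 80.0% of the H4K20me3 reads of the first 100 kb, 82.5% of the MCAF1 reads, 85.1% of the REST reads and 86.1% of the Ring1b reads. The other 176 bins of the first 100 kb had 0.502-fold in H4K20me3 (0.484 to 0.521), 0.372-fold in MCAF1 (0.358 to 0.385), 0.338-fold in REST (0.314 to 0.363) and 0.310-fold in Ring1b (0.287 to 0.334).

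The longest run was 70 kb on chromosome 11, at mm8 positions 3030174 to 3100173. It had 42-fold in H4K20me3 (41.1 to 42.8), 33.3-fold in MCAF1 (32.7 to 33.9), 26.5-fold in REST (25.4 to 27.6) and 25.6-fold in Ring1b (24.5 to 26.7). These were 9354, 10483, 2360 and 2251 distinct reads. H4K20me3 stood above the others here, with a ratio of folds of 1.26 over MCAF1 (1.23 to 1.3), 1.59 over REST (1.52 to 1.66) and 1.64 over Ring1b (1.57 to 1.72). REST and Ring1b did not differ beyond counting error, with a ratio of 1.03 (0.976 to 1.10).

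The run ended abruptly. Its last bin, 3090174 to 3100173, was its highest in H4K20me3, MCAF1 and Ring1b, with 79.0-fold in H4K20me3 (75.9 to 82.1), 49.3-fold in MCAF1 (47.3 to 51.4), 33.7-fold in REST (30.6 to 37.0) and 41.9-fold in Ring1b (38.4 to 45.7). The next bin had 1.79-fold, 1.91-fold, 2.20-fold and 2.31-fold. The 2-location reads of the run lay towards the centromeric side. In the bin 3030174 to 3040173 they had 536-fold in H4K20me3, 349-fold in MCAF1, 202-fold in REST and 211-fold in Ring1b, and in the last bin 15.5-fold, 10.7-fold, 13-fold and 16.9-fold. Reads with 1 location were even over both strands, with 50.3% on the plus strand (49.0% to 51.7%) for H4K20me3 over 3020174 to 3070173.

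The runs on chromosomes 5 and 9 had the opposite order of libraries. The first bin of chromosome 5, 3000015 to 3010014, had 16.3-fold in H4K20me3 (14.9 to 17.7), 23.0-fold in MCAF1 (21.6 to 24.5), 42.2-fold in REST (38.7 to 45.9) and 45-fold in Ring1b (41.4 to 48.9). The next bin had 0, 0, 1 and 0 reads. The first 4 bins of chromosome 9, 3000001 to 3040000, had 7.49-fold in H4K20me3 (7.03 to 7.99), 10.5-fold in MCAF1 (10 to 11), 21.2-fold in REST (20 to 22.5) and 21.0-fold in Ring1b (19.7 to 22.3). The bin after them had 0.157-fold, 0.0667-fold, 0.0785-fold and 0.0796-fold.

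The ratios of the H4K20me3 fold were alike in these 2 runs. Over MCAF1 the ratio was 0.707 (0.635 to 0.787) on chromosome 5 and 0.714 (0.660 to 0.772) on chromosome 9. Over REST it was 0.386 (0.342 to 0.436) and 0.354 (0.324 to 0.386), and over Ring1b 0.361 (0.320 to 0.408) and 0.357 (0.327 to 0.390). Reads with 2 locations were also dense here. On chromosome 5 they had 178-fold in H4K20me3, 290-fold in MCAF1, 269-fold in REST and 348-fold in Ring1b, and on chromosome 9 they had 102-fold, 166-fold, 166-fold and 201-fold.

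The other 2 runs at the start were 1 bin each. The first bin of chromosome 11, 3000174 to 3010173, had the widest gap between libraries of the 5 runs at the start, with 2.48-fold in H4K20me3 (1.97 to 3.09), 4.20-fold in MCAF1 (3.62 to 4.85), 15.3-fold in REST (13.2 to 17.6) and 17.8-fold in Ring1b (15.6 to 20.3). It lay 20 kb from the long run of the same chromosome, in which H4K20me3 was highest. The bin 3010001 to 3020000 of chromosome 4 had 10.7-fold in H4K20me3 (9.64 to 11.9), 6.56-fold in MCAF1 (5.83 to 7.35), 11.5-fold in REST (9.68 to 13.5) and 12.6-fold in Ring1b (10.7 to 14.7), and only MCAF1 stood apart from the rest there. H4K20me3 and MCAF1 share their seed length and REST and Ring1b theirs. In the runs of chromosomes 5 and 9 and in both runs of chromosome 11, 1 of these pairs lay above the other. That grouping of libraries is therefore also a grouping by seed length and by depth, and these cannot be told apart from the antibody.

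**Figure D2:**
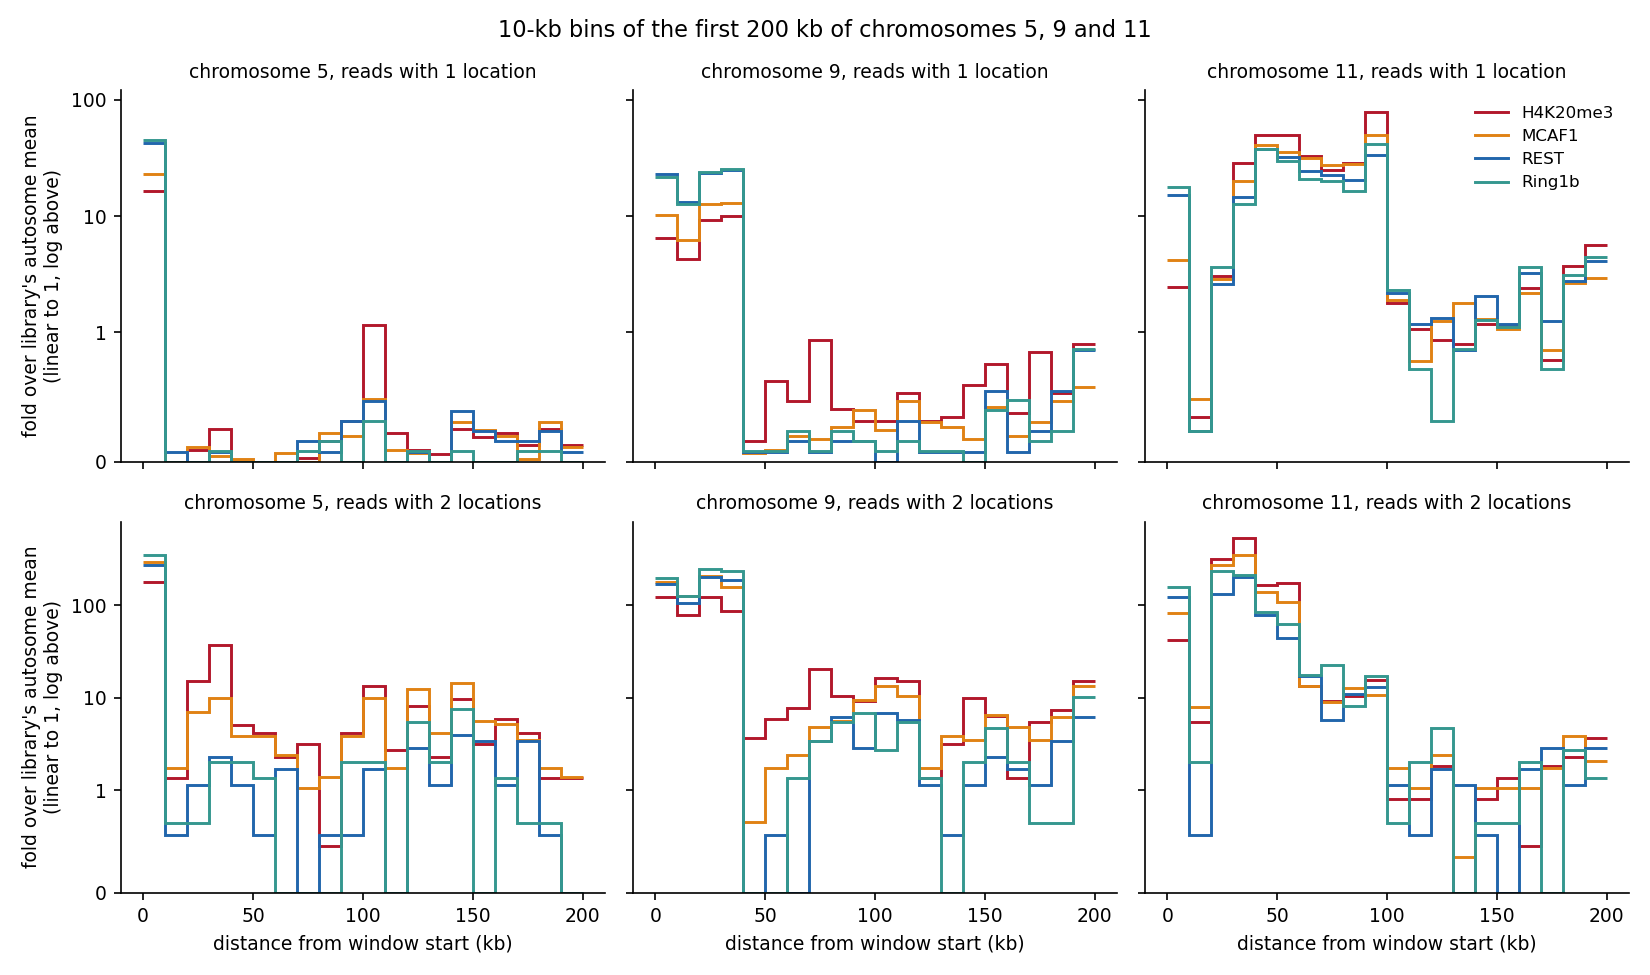
Fold over the autosome mean of each library in the 10-kb bins of the first 200 kb of chromosomes 5, 9 and 11, for reads with 1 location (top) and 2 locations (bottom), on axes that are linear up to 1 and logarithmic above it. The 1-location peak spans 1 bin on chromosome 5, 4 bins on chromosome 9 and 7 bins on chromosome 11, where H4K20me3 has 79.0-fold in the last bin and 1.79-fold in the next.

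**Figure D3:**
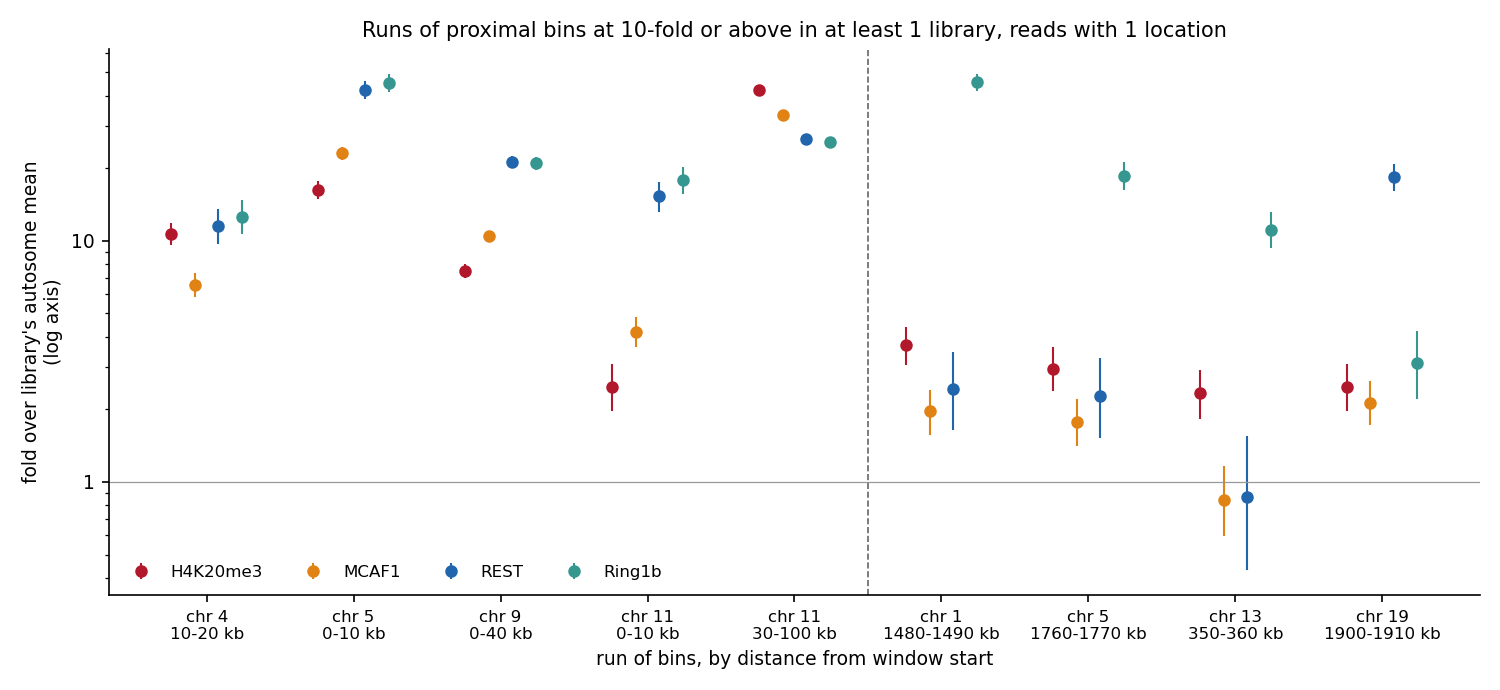
Fold of the 9 runs of proximal bins at 10-fold or above in at least 1 library, for reads with 1 location on a log axis, with exact 95% Poisson intervals; the dashed line separates the 5 runs within the first 100 kb from the 4 further in. REST and Ring1b lie above H4K20me3 on chromosomes 5 and 9, at 42.2 and 45 against 16.3 on chromosome 5, while H4K20me3 leads in the 70-kb run of chromosome 11.

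Reads at repeated positions moved with the dense sequence at the start. In the first 100 kb, 20.4% of H4K20me3 reads with 1 location repeated a position and strand already counted (19.8% to 21.0%), against 2.02% outside the proximal bins. The shares were 36.5% and 12.2% in MCAF1, 39.8% and 12.6% in REST, and 34.0% and 6.27% in Ring1b. From 100 kb to the end of the window they were 2.19%, 12.1%, 12.6% and 5.70%, close to those outside. In the run of chromosome 9, 46.1% of H4K20me3 reads, 67.7% of MCAF1 reads, 66.3% of REST reads and 61.4% of Ring1b reads were repeats. Counting each position once thus lowered the folds of that run. With every read kept they were 13.6, 28.5, 55.0 and 50.9. In the first bin of chromosome 5 the repeats were 36.4%, 61.4%, 50.6% and 44% of reads, and with every read kept the folds were 25, 52.3, 74.6 and 75.3. The ratio of the H4K20me3 fold to that of MCAF1 was then 0.479 on chromosome 5 and 0.478 on chromosome 9.

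Libraries also shared more exact positions there. Of the H4K20me3 positions in the first 100 kb, 22.8% were also MCAF1 positions on the same strand, which was 19.1% of the MCAF1 positions. Outside the proximal bins these shares were 0.636% and 0.450%. REST and Ring1b shared 20.2% of the REST positions and 20.7% of the Ring1b positions, against 0.403% and 0.408% outside. From 100 kb to the end of the window they shared 0.408% and 0.450%. The part of read density, duplication or carried-over molecules in these shared positions was not tested.

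The 19 chromosomes differed far more than the libraries did. Their folds for reads with 1 location ran from 0.0206 to 3.29 in H4K20me3, with a median of 0.794 and an SD over chromosomes of 0.695. The medians were 0.874 in MCAF1, 0.911 in REST and 0.824 in Ring1b, and the SDs 0.601, 0.572 and 0.567. The proximal 2 Mb was denser than the rest of the same chromosome on 8 chromosomes in H4K20me3, 7 in MCAF1 and 5 each in REST and Ring1b. Across the 19 chromosomes the libraries followed each other closely, with Spearman's rho between 0.911 (H4K20me3 with Ring1b) and 0.977 (H4K20me3 with MCAF1). These points share the assembly and the sequence that reads can reach, so the correlation is a description.

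Chromosome 11 was highest in all 4 libraries, with 3.29-fold in H4K20me3 (3.25 to 3.34), 2.89-fold in MCAF1 (2.86 to 2.93), 2.77-fold in REST (2.70 to 2.83) and 2.70-fold in Ring1b (2.63 to 2.76). Without its first 100 kb it had 1.89-fold, 1.78-fold, 1.84-fold and 1.78-fold, and chromosome 19 was then higher in all 4 libraries, at 2.0-fold, 1.81-fold, 1.91-fold and 1.83-fold. Chromosome 19 came next, with 1.91-fold in H4K20me3 (1.88 to 1.95), 1.73-fold in MCAF1 (1.7 to 1.76), 1.82-fold in REST (1.77 to 1.88) and 1.74-fold in Ring1b (1.69 to 1.79). Unlike chromosome 11 it was low at the start, with 0.242-fold, 0.142-fold, 0.126-fold and 0.119-fold in its first 100 kb. The third place went to chromosome 8 in H4K20me3, with 1.29-fold (1.26 to 1.32), and to chromosome 12 in the others, with 1.3-fold, 1.28-fold and 1.13-fold. In H4K20me3 chromosome 12 also had 1.29-fold, and the order of these neighbours is within counting error.

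Chromosome 14 was lowest by a wide margin, with 0.0206-fold in H4K20me3 (0.0172 to 0.0244), 0.0272-fold in MCAF1 (0.0239 to 0.0309), 0.0345-fold in REST (0.0277 to 0.0426) and 0.0322-fold in Ring1b (0.0256 to 0.0400). These values rest on 131, 245, 88 and 81 reads. Over the bins that any library had read, they were 0.0374, 0.0495, 0.0628 and 0.0586, still the lowest values of any chromosome. The 2 Mb that follow on chromosome 14 had 0.465-fold, 0.469-fold, 0.452-fold and 0.467-fold. Its 2-location reads were less depleted, at 0.748-fold, 0.714-fold, 0.457-fold and 0.403-fold. Chromosome 3 was the second lowest, with 0.428-fold in H4K20me3, 0.377-fold in MCAF1, 0.406-fold in REST and 0.296-fold in Ring1b, followed by chromosome 15 in H4K20me3, MCAF1 and Ring1b, with 0.529-fold, 0.587-fold and 0.513-fold, and by chromosome 13 in REST, with 0.568-fold.

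Reads with 2 locations ordered the chromosomes differently. The proximal 2 Mb exceeded the rest of the same chromosome on 16 chromosomes in H4K20me3, 14 in MCAF1, 15 in REST and 14 in Ring1b. Chromosome 11 was highest in H4K20me3 with 7.52-fold (7.27 to 7.78), in MCAF1 with 6.08-fold (5.88 to 6.29) and in Ring1b with 5.63-fold (5.36 to 5.90), and chromosome 9 in REST with 4.56-fold (4.34 to 4.79). These values came from the first 100 kb, at 128-fold, 100-fold and 81.2-fold on chromosome 11 in the same libraries and 67.6-fold on chromosome 9 in REST. From 100 kb to the end of the window chromosome 11 had 1.16-fold in H4K20me3, 1.14-fold in MCAF1 and 1.65-fold in Ring1b, and chromosome 9 had 1.24-fold in REST. There chromosome 4 was highest in H4K20me3, with 3.95-fold, and in MCAF1, with 3.31-fold, and chromosome 6 in REST, with 2.08-fold, and Ring1b, with 3.08-fold. On chromosome 4 the libraries parted over the whole window, with 4.51-fold in H4K20me3 (4.31 to 4.71), 3.74-fold in MCAF1 (3.59 to 3.90), 1.98-fold in REST (1.83 to 2.13) and 2.34-fold in Ring1b (2.17 to 2.52). That split also goes with seed length and depth, which cannot be told apart from the antibody. Chromosome 19, the second by reads with 1 location, had only 1.62-fold, 1.65-fold, 1.5-fold and 1.36-fold. Spearman's rho between the 2 kinds of read over the 19 chromosomes was 0.274 in H4K20me3, 0.304 in MCAF1, 0.404 in REST and 0.396 in Ring1b.

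**Figure D4:**
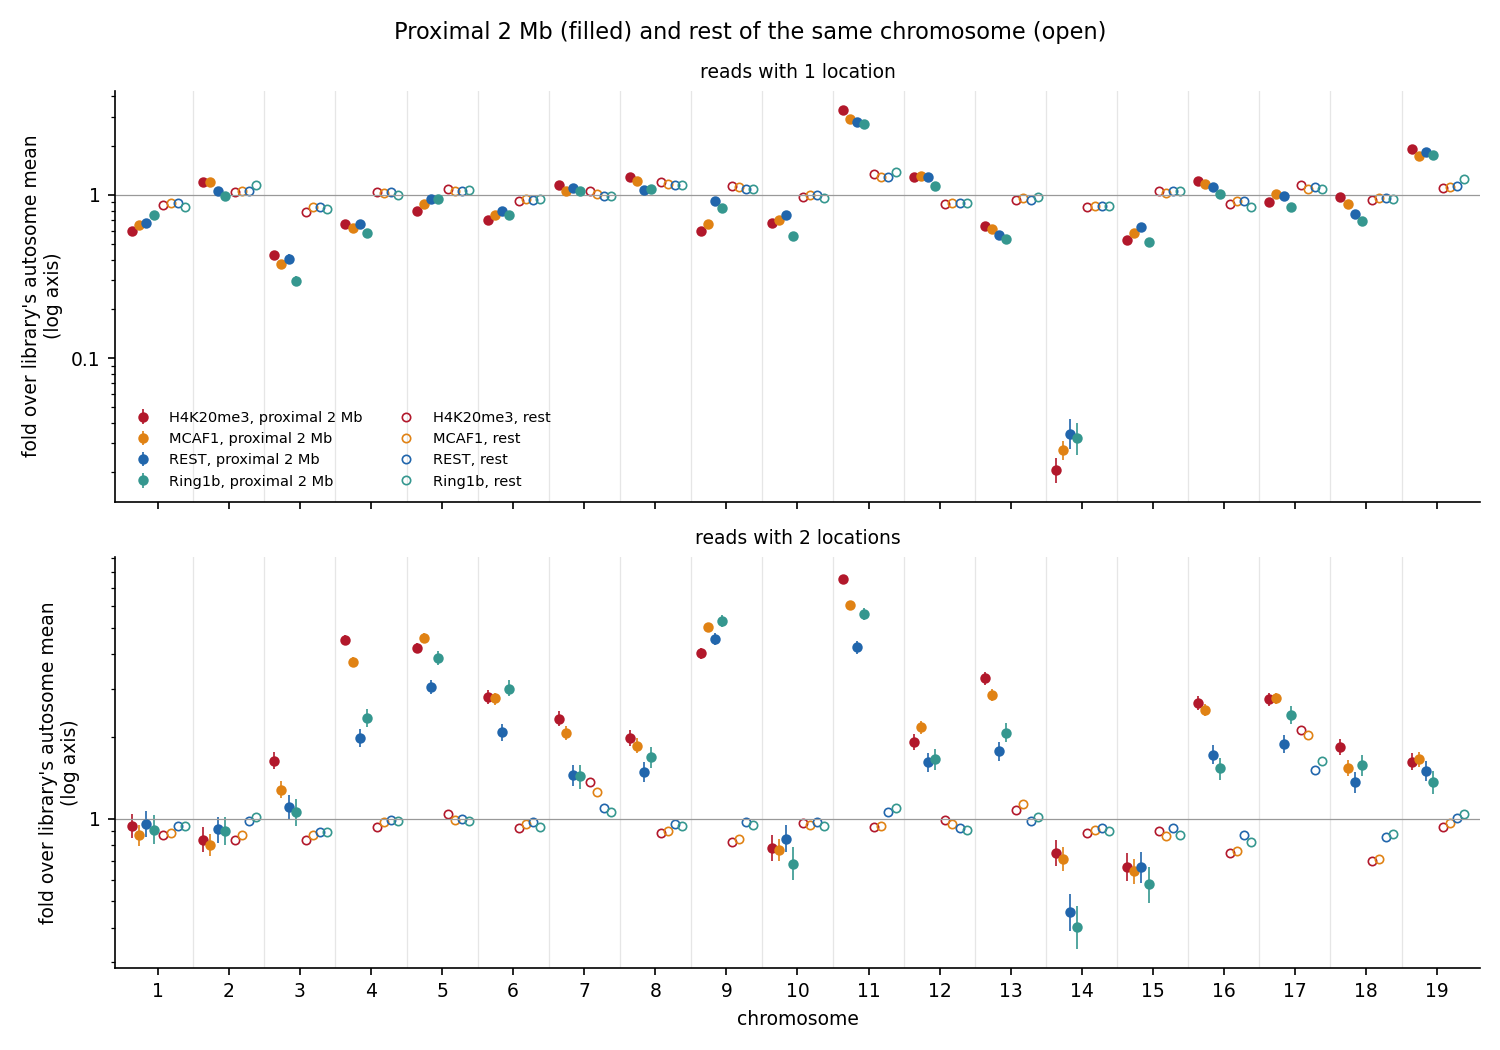
Fold of the proximal 2 Mb (filled points, with exact 95% Poisson intervals) and of the rest of the same chromosome (open points) for the 19 autosomes and 4 libraries on log axes, for reads with 1 location (top) and 2 locations (bottom). Chromosome 11 is highest at 3.29-fold and chromosome 14 lowest at 0.0206-fold in H4K20me3 by reads with 1 location.

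The same contrast appeared when each chromosome was cut into consecutive 2-Mb windows from its first read, 1195 in all. By reads with 1 location, 2 of the 19 proximal windows were among the highest 10% in each library. By reads with 2 locations there were 9 in H4K20me3, 10 in MCAF1, 11 in REST and 11 in Ring1b. The median rank of the proximal windows was 683, 671, 621 and 661 by reads with 1 location and 121, 104, 112 and 107 by reads with 2. The best rank by reads with 1 location was 2 in H4K20me3, 1 in MCAF1, 2 in REST and 15 in Ring1b.

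At a threshold of 2-fold the proximal bins were close to the background. H4K20me3 reached it in 397 proximal bins (10.4%, 9.49% to 11.5%), against 11.8% of all autosome bins. MCAF1 did so in 319 (8.39%), against 8.53% of all autosome bins, REST in 341 (8.97%), against 9.06%, and Ring1b in 328 (8.63%), against 8.30%. All 4 libraries reached it together in 164 bins (4.32%, 3.69% to 5.01%), against 3.72% of all autosome bins. Of these, 41 lay on chromosome 19, 40 on chromosome 11, 24 on chromosome 7, 21 on chromosome 8, 13 on chromosome 12 and 12 on chromosome 16. With every library thinned to 3023044 reads the counts were 386, 337, 324 and 328, against 11.7%, 8.91%, 8.75% and 8.30% of all autosome bins.

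At 10-fold the counts were small and most of the bins lay at the chromosome starts. H4K20me3 reached 10-fold in 9 proximal bins, against 0.0162% of all autosome bins, and all 9 were in the first 100 kb. MCAF1 reached it in 11, against 0.00582%, REST in 15, against 0.0225%, and Ring1b in 17, against 0.454%. For Ring1b the 17 bins are 0.447% of the proximal bins, which is the background share, while 14 of them fall in the first 100 kb. All 4 libraries reached 10-fold together in 8 proximal bins, 7 on chromosome 11 and 1 on chromosome 5, against 0.00416% of all autosome bins. Outside the proximal bins 2 such bins were found on the autosomes, at 98461309 to 98471308 on chromosome 2 and at 39450414 to 39460413 on chromosome 17, and none in the following or distal 2 Mb. In the bin of chromosome 2 the folds of 24.0 in H4K20me3, 28.1 in MCAF1, 63.8 in REST and 65.6 in Ring1b had REST and Ring1b above H4K20me3 and MCAF1, as in the runs on chromosomes 5 and 9. The bin of chromosome 17 had 131, 92.6, 342 and 471, with H4K20me3 above MCAF1.

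Reads with 2 locations passed 10-fold in many more proximal bins. The counts were 158 in H4K20me3 (4.16%, 3.55% to 4.84%), against 1.35% of all autosome bins, 145 in MCAF1 (3.82%), against 1.19%, 59 in REST (1.55%), against 0.340%, and 77 in Ring1b (2.03%), against 0.535%. All 4 libraries passed it in 47 bins (1.24%, 0.910% to 1.64%), against 0.228%, and 20 of those 47 lay in the first 100 kb. In H4K20me3 chromosome 4 held 28 of the 158 bins and chromosome 5 held 23. A 10-fold density of these reads is fewer than 20 alignments in REST and Ring1b, so single bins near the threshold are imprecise.

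Some bins were far denser in reads with 2 locations than in reads with 1. The bin 3150016 to 3160015 of chromosome 6 had 158-fold in H4K20me3 (142 to 176), 176-fold in MCAF1 (161 to 192), 179-fold in REST (160 to 200) and 371-fold in Ring1b (341 to 403). By reads with 1 location the same bin had 0.943-fold, 0.689-fold, 2.36-fold and 2.15-fold. The bin 3030414 to 3040413 of chromosome 17 had the other order, with 272-fold in H4K20me3 (251 to 295), 221-fold in MCAF1 (204 to 238), 82.2-fold in REST (69.4 to 96.8) and 102-fold in Ring1b (86.6 to 120), and 3.30-fold, 2.53-fold, 2.43-fold and 1.91-fold by reads with 1 location. The order in the bin of chromosome 17 also goes with seed length and depth, which cannot be told apart from the antibody. A read with 2 locations is counted at both, so its density at 1 of them cannot be assigned to that place.

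The H4K20me3 library, the mark for which pericentric heterochromatin is best known, was compared directly with the others. Over the proximal bins its fold for reads with 1 location was 1.03 times that of MCAF1 (1.02 to 1.04), 1.03 times that of REST (1.02 to 1.04) and 1.11 times that of Ring1b (1.10 to 1.12). The ratio was above 1 on 10, 10 and 14 of the 19 chromosomes. In the following 2 Mb the ratios were 1.02, 1.01 and 1.07, and in the distal 2 Mb 1.04, 1.03 and 0.904. The distal ratios were above 1 on 7, 8 and 11 chromosomes, with medians over chromosomes of 0.917, 0.968 and 1.03, so there the pooled ratios and the median chromosome lay on opposite sides of 1. In the proximal bins the medians were 1.0, 1.01 and 1.14. Ring1b itself was at 0.895-fold in the proximal bins and at 1.25-fold in the distal 2 Mb.

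Along the window the pooled ratio over Ring1b was 0.797 at 0 to 50 kb (0.764 to 0.833) and 1.67 at 50 to 100 kb (1.59 to 1.76). It was 1.21, 1.11, 1.16 and 1.07 in the next 4 distance classes and 1.11 just beyond the window, at 2000 to 3000 kb. In the first 100 kb, chromosomes 5, 9 and 11 held 79.2% of the H4K20me3 reads and 84.2% of the Ring1b reads. The pooled ratio over that stretch was 1.12, while the median over chromosomes was 1.38, with 13 of 19 above 1. By chromosome the ratio over Ring1b was highest on chromosome 3, at 1.45 (1.33 to 1.57), and chromosome 18, at 1.4 (1.33 to 1.48), where the rest of the chromosome had 0.960 and 0.981. It was lowest on chromosome 14, at 0.639 (0.481 to 0.853), and chromosome 9, at 0.725 (0.687 to 0.765), where the rest of the chromosome had 0.987 and 1.05. For reads with 2 locations the H4K20me3 fold was 1.05 times that of MCAF1 (1.03 to 1.07), 1.4 times that of REST (1.37 to 1.43) and 1.23 times that of Ring1b (1.20 to 1.25). In the following 2 Mb, which hold part of the dense stretch of chromosome 17, those ratios were 1.07, 1.44 and 1.4, and in the distal 2 Mb 1.04, 1.05 and 1.02. MCAF1 shares its seed length with H4K20me3, while REST and Ring1b had a shorter seed and fewer reads. The part of seed and depth in these ratios was not tested.

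**Figure D5:**
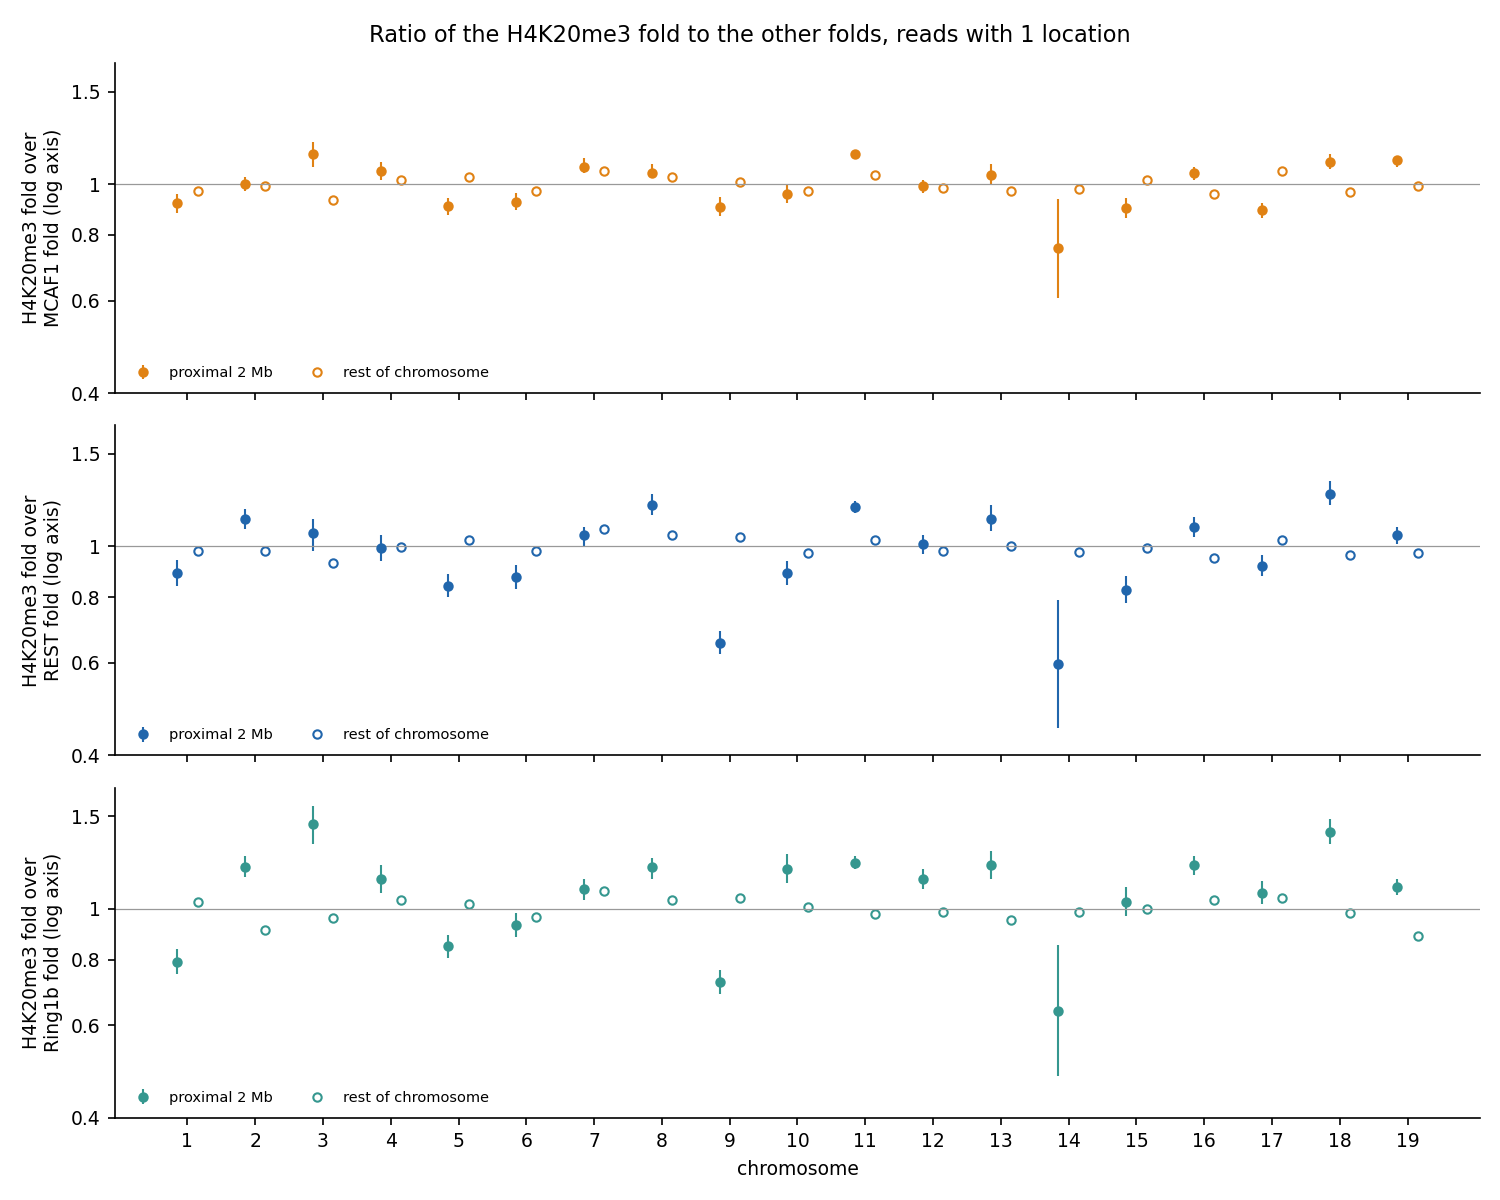
Ratio of the H4K20me3 fold to the MCAF1 (top), REST (middle) and Ring1b (bottom) fold for each autosome on a log axis, for reads with 1 location, in the proximal 2 Mb (filled points, with exact 95% conditional binomial intervals) and in the rest of the chromosome (open points). Proximal ratios over Ring1b run from 0.639 on chromosome 14 to 1.45 on chromosome 3, and those of the following 2 Mb, a window of the same size that is not drawn, from 0.573 to 1.39.

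Away from the start, single bins stood out in 1 library. The Ring1b library had 45.3-fold (41.6 to 49.1) at 4480293 to 4490292 of chromosome 1, where H4K20me3 had 3.68-fold, MCAF1 1.96-fold and REST 2.43-fold. Its fold there was 12.3 times the highest of the others (10.1 to 15.2). It also had 18.6-fold (16.3 to 21.2) at 4760015 to 4770014 of chromosome 5 and 11.1-fold (9.37 to 13.1) at 3352590 to 3362589 of chromosome 13, at 6.30 times (4.94 to 8.10) and 4.79 times (3.59 to 6.44) the next library, which was H4K20me3 in each. Polycomb complexes are known to occupy promoters of developmental regulators in embryonic stem cells, but these bins were not assigned to genes, since no mm8 annotation was used here.

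REST had 1 such bin above 10-fold. At 4979723 to 4989722 of chromosome 19 it reached 18.4-fold (16.1 to 20.9), against 2.48-fold in H4K20me3, 2.13-fold in MCAF1 and 3.10-fold in Ring1b, and 44.7% of its reads there repeated a position. The next 4 REST bins by this ratio, on chromosomes 7 and 10, had between 3.22-fold and 5.10-fold, at 4.02 to 4.28 times the next library.

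H4K20me3 bins of this kind were lower. The clearest lay at 4861309 to 4871308 of chromosome 2, with 4.46-fold in H4K20me3 (3.76 to 5.26), 0.845-fold in MCAF1, 0.628-fold in REST and 0.398-fold in Ring1b, a ratio of 5.28 over MCAF1 (3.67 to 7.77). The bin 3330454 to 3340453 of chromosome 12 had 2.01-fold in H4K20me3 (1.55 to 2.57), 0.40-fold in MCAF1, 0.314-fold in REST and 0.0796-fold in Ring1b. The other 3 lay on chromosome 9 and had H4K20me3 folds between 0.628 and 0.943, below the autosome mean. The 5 MCAF1 bins with the highest ratio had folds between 0.445 and 0.734, and the interval of the ratio included 1 in 4 of them. None of these 5 bins was above the autosome mean in MCAF1.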

How the data were processed

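The deposited files list, for each library and chromosome, signed read positions on mm8, with the sign giving the strand. Reads with 1 and with 2 locations are in separate sections of the same file. Per the file headers, the authors aligned the reads with Bowtie, allowing 2 mismatches in a seed of 26 (REST, Ring1b) or 36 bases (H4K20me3, MCAF1), a summed mismatch quality of 70 and at most 2 locations (k 2, m 2). The sources used here do not give the version of Bowtie or which end of a minus-strand read the position marks. The choice of end can shift such reads by less than 1 read length against a 10-kb bin.

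Positions were reduced to 1 read per position and strand, counted in 10-kb bins, and divided by the autosome mean of the library, with Python 3.11.15, numpy 2.4.6 and scipy 1.17.1, and plotted with matplotlib 3.10.9. The counting was tested on simulated data. Shares of empty bins refer to reads with 1 location from all 4 libraries. Bins were named by rule: per library the 5 highest by reads with 1 location, the 3 highest by reads with 2, and the 5 with the highest ratio over the next library and at least 20 reads. The 3 highest and 3 lowest chromosomes were named too. A library with no read in a bin was set to 1 read when that ratio was formed. The runs of bins at 10-fold or above were an addition made after the values were seen. Members and lists were chosen with earlier results of these data known. Each antibody had 1 library, so no test was run. Intervals of folds and ratios and floors (3 counts) cover counting error only, and intervals of shares treat bins or reads as independent. A count of 3 reads in 1 bin is 0.0943-fold in H4K20me3, 0.0667-fold in MCAF1, 0.236-fold in REST and 0.239-fold in Ring1b. Alternatives included every read kept, both kinds of read together, other bin and window sizes, another window start, other references and each chromosome left out.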

Additional observations from a re-analysis of the deposited data

Results flagged for a closer look

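Some reads with 2 locations lay nearer to the chromosome start than the first read with 1 location and so fell outside the 3800 bins. There were 26 such alignments in H4K20me3, 40 in MCAF1, 10 in REST and 13 in Ring1b over the 19 autosomes. They drew attention because they are alignments in sequence that no comparison used. With no control library, they were set only against the limit of 3 counts that a count of 0 allows. They were not compared with the autosome mean of these reads, so no enrichment is read from them. They were spread over several chromosomes. Chromosome 19, where the first read with 1 location came latest, had 12 in H4K20me3, 10 in MCAF1, 2 in REST and 4 in Ring1b, and chromosome 14 had 6, 7, 4 and 1. On chromosome 11 there were 1 in H4K20me3, 4 in MCAF1, 0 in REST and 7 in Ring1b.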

How the results depend on the processing

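The proximal fold of reads with 1 location lay so near 1 that its side depended on the processing in H4K20me3, MCAF1 and REST, while Ring1b stayed below 1 in every setting run. With every read kept it was 1.02 in H4K20me3, 1.0 in MCAF1, 1.01 in REST and 0.933 in Ring1b, and with both kinds of read together 1.04, 1.01, 1.02 and 0.958. Over covered bins it was 1.01, 0.982, 0.983 and 0.912, and as the mean over chromosomes of the ratio to the rest of the chromosome 0.948, 0.927, 0.927 and 0.851. The median covered proximal bin over the median covered autosome bin was 0.880, 0.875, 0.818 and 0.875. In the first 1 Mb it was 1.01 in H4K20me3, 0.951 in REST and 0.877 in Ring1b, in the first 3 Mb 0.980 in H4K20me3, 0.959 in MCAF1 and 0.885 in Ring1b, and with every window begun at 3 Mb of its chromosome it was 0.985 in H4K20me3 and 0.958 in MCAF1. Without the highest 1% of proximal bins it was 0.877, 0.872, 0.856 and 0.764, a trim that left the autosome mean as it was and so lowers the fold by design. Leaving out 1 chromosome at a time gave 0.881 to 1.04 in H4K20me3, 0.871 to 1.01 in MCAF1, 0.880 to 1.01 in REST and 0.812 to 0.935 in Ring1b, lowest without chromosome 11 and highest without chromosome 14. The following settings were chosen after seeing the data. Without the first 100 kb the fold was 0.922, 0.911, 0.906 and 0.833, and without chromosomes 5, 9 and 11 it was 0.918, 0.894, 0.882 and 0.811. The cause of these shifts was not tested.

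The pooled enrichment of reads with 2 locations stayed above 1 in the settings run, which were fewer than for reads with 1 location. Covered bins, the median bin, the rest of the chromosome as reference and other windows were not among them. With every alignment kept it was 2.59 in H4K20me3, 2.63 in MCAF1, 1.95 in REST and 2.37 in Ring1b. Without the highest 1% of proximal bins, again with the autosome mean untrimmed, it was 1.65, 1.54, 1.17 and 1.16. It was 1.75, 1.67, 1.28 and 1.41 without the first 100 kb, and 1.96, 1.81, 1.38 and 1.49 without chromosomes 5, 9 and 11. Leaving out 1 chromosome gave 2.20 to 2.58, 2.15 to 2.43, 1.62 to 1.83 and 1.84 to 2.10.

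The ratio of the H4K20me3 fold to that of MCAF1 was 1.01 without the highest 1% of bins and 1.01 without the first 100 kb, and to that of Ring1b it was 1.15 without the highest 1%. Over single chromosomes left out it was 1.01 to 1.04 over MCAF1, 1.0 to 1.05 over REST and 1.09 to 1.13 over Ring1b. The counts of proximal bins became 134 in H4K20me3, 52 in MCAF1, 107 in REST and 176 in Ring1b at 3-fold (3.53%, 1.37%, 2.82% and 4.63% of them, against 3.07%, 0.847%, 2.32% and 3.96% of all autosome bins). They were 816, 691, 727 and 614 with 5-kb bins (10.7%, 9.09%, 9.57% and 8.08%, against 12.4%, 9.56%, 10.4% and 8.19%) and 192, 149, 161 and 174 with 20-kb bins (10.1%, 7.84%, 8.47% and 9.16%, against 11.2%, 7.63%, 8.44% and 8.55%). No paired analysis was possible because each antibody had 1 library and the results come from no test.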
